A study of Mus musculus with 6 samples.

Results

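Kupffer cells (KCs), the resident macrophages of the liver sinusoids, were examined at day 12 in mice that carried liver macrometastases of breast tumor cells. The cells were chosen by their deposited scaled values, as the cells in which the mean of the KC markers Clec4f, Vsig4, Cd5l and C1qa lay above 1 and the mean of the endothelial markers Kdr and Ptprb lay below 1. This rule selected 1811 of the 10415 CD45+ cells at day 12, among 23008 cells in the whole series. There were 847 KCs in the control (Ctrl) library and 964 in the Tim3-KD library.

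KCs line the sinusoids and take up bacteria, lipoproteins, dying cells and aged red cells from the portal blood. They carry a distinct set of pattern and scavenger receptors, they produce complement and they recycle heme iron. On activation, macrophages switch on immediate early transcription factors, chemokines and inflammatory cytokines, and they present antigen on MHC class II. KCs keep their identity through signals of neighboring endothelial and stellate cells, among them TGF-β family ligands, Notch ligands and oxysterols that act on LXRα.

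The study injected 4T07 cells, a mouse mammary tumor line of Balb/c origin, by the intracardiac route into immunocompetent Balb/c mice. The tumor cells carried either a control vector (Ctrl) or an shRNA against Tim3 (Tim3-KD), the gene of an immune checkpoint receptor that these tumor cells also express. Liver pieces of 5 by 5 mm were digested with collagenase and DNase, CD45+ cells were sorted, and 10x Genomics 3′ libraries were made. The host mice of both groups were therefore not modified, and the knockdown itself could not be checked in sorted CD45+ cells. The groups used here were macrometastasis at day 12 and micrometastasis at day 3, each with Ctrl and with Tim3-KD tumor cells, and tumor-free adjacent tissue at day 3 for cell shares and single levels. Each group had 1 library made from pooled mice, so no difference below was tested and no p-value is given. The ranges given are 95% intervals for counting error only.

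The KCs had a median of 9272 UMIs (unique transcript molecules counted) in Ctrl and 11501 in Tim3-KD, against 5683 and 6553.5 in the other cells of the same libraries. Together they held 8144200 UMIs in Ctrl and 10808700 in Tim3-KD. All levels are given as CPM, the UMIs of a gene scaled to the total UMIs of the cells summed, and do not account for transcript length. The day 12 libraries shared 9 cell barcodes, of which 2 were KCs in both, and no KC at day 12 shared a barcode with a KC of another library.

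The score of the 4 markers separated the KCs from the other cells with few cells in between. Its median was 2.04 in Ctrl KCs and 2.21 in Tim3-KD KCs, and -0.495 and -0.496 in the other cells. The 3 cells just inside the threshold scored 1.07, 1.15 and 1.15 in Ctrl and 1.02, 1.02 and 1.06 in Tim3-KD, and the 3 just outside scored 0.991, 0.965 and 0.801 in Ctrl and 0.980, 0.972 and 0.874 in Tim3-KD. Between 0.5 and 1 there were 15 Ctrl and 17 Tim3-KD cells. The endothelial limit left out 11 Ctrl and 4 Tim3-KD cells that passed on the KC markers. These scores chose the cells and are given as description.

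**Figure D1:**
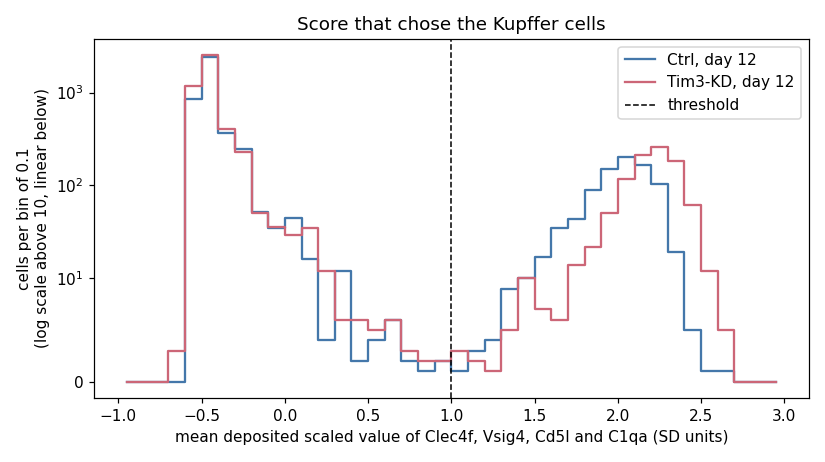
Number of day 12 cells (y axis, log scale above 10 and linear below) by the mean deposited scaled value of the 4 KC markers (x axis, in SD units, bins of 0.1), for the Ctrl and the Tim3-KD library. Few cells lie around the threshold of 1 (dashed line), which parts the KCs, with medians of 2.04 and 2.21, from the other cells, with medians of -0.495 and -0.496.

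The genes that were highest in KCs relative to the other cells of the same libraries were known KC genes. Since the cells were chosen on genes of the same matrix, this is a description and no test. Besides 3 of the 4 markers of the rule, the 15 genes of highest ratio in both libraries were the lectins Cd209f and Cd209g, the potassium channel Kcnj16, the folate receptor Folr2, the ficolin Fcna, the complement component C6, the growth factor Igf1, the apolipoprotein Apoc1, the fatty acid binding protein Fabp7 and Pcolce2, Chp2 and Paqr9. Folr2 stood at 758 CPM in Ctrl KCs and 986 in Tim3-KD KCs, against 4.02 and 1.95 in the other cells. Clec4f, the galactose-binding lectin specific to KCs, stood at 5919 and 7211 CPM in KCs and at 34.0 and 14.7 in the other cells. Timd4, a phosphatidylserine receptor of embryonically seeded KCs that the rule did not use, was detected in 94.1% of Ctrl and 96.2% of Tim3-KD KCs.

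KCs made up 17.24% (16.2 to 18.3, exact binomial interval) of the sorted cells in Ctrl and 17.5% (16.5 to 18.6) in Tim3-KD at day 12. In micrometastasis at day 3, the same rule found 281 of 5106 cells (5.50%, 4.89 to 6.16) in Ctrl and 268 of 5142 (5.21%, 4.62 to 5.86) in Tim3-KD. In adjacent tissue it found 29 of 1803 cells (1.61%, 1.08 to 2.30) in Ctrl and 101 of 542 (18.6%, 15.4 to 22.2) in Tim3-KD. Thus the share was higher at day 12 than in micrometastasis with both tumor lines and alike between the lines at each of these sites, while the adjacent tissue libraries stood far apart. The rule reads values that were scaled within each site, and a share of sorted cells depends on all other cells of the sort.

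To see how KCs differed when the tumor cells carried the shRNA against Tim3, the summed UMIs of KCs were compared between the day 12 libraries. A gene counted as higher or lower when its Tim3-KD over Ctrl ratio was at least 1.5-fold, among 1778 features with at least 100 UMIs over both libraries. Of these, 78 (4.39%) were higher and 209 (11.8%) were lower in Tim3-KD, and the median log2 ratio was -0.01. Immediate early genes, MHC class II genes and most chemokines and cytokines stood lower in Tim3-KD, and KC receptors such as Marco and Cd163 stood higher. In the other cells of the same libraries the median log2 ratio of these features was -0.33, and 27.8% of all of them were lower and 3.32% higher past 1.5-fold there. Of the features lower in KCs 48.8%, and of those higher 19.2%, were past 1.5-fold in the same direction in the other cells. Of 35 features that join near-identical genes, 17 were past 1.5-fold, and none of them is named below.

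**Figure D2:**
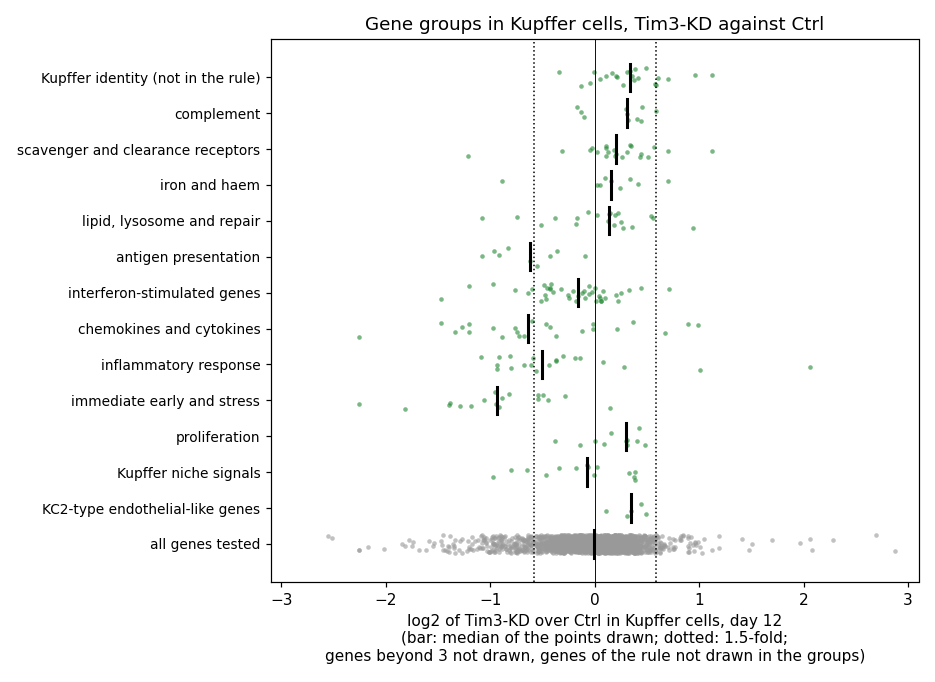
Each point is 1 gene with at least 100 UMIs, placed by the log2 of its Tim3-KD over Ctrl level in KCs at day 12 (x axis) and by gene group (y axis), with a bar at the median of each group and dotted lines at 1.5-fold. Genes of the rule are left out of the groups. The immediate early and stress group lay lowest, with a median of -0.93, and the KC identity group lay among the highest, with a median of 0.34, while all genes tested had a median of -0.01.

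Immediate early and stress genes, which are switched on within minutes of stimulation, had the lowest median of the 13 groups of function. Of 18 genes tested, 12 were lower in Tim3-KD and none was higher, where 11.8% of all features were lower and 4.39% higher. Their median log2 ratio was -0.93 against -0.01 over all features. Jun (chr4:95049034-95052222, minus strand, GRCm38), a subunit of the AP-1 transcription factor, stood at 2245 CPM with Ctrl and 986 with Tim3-KD (ratio 0.439, 0.429 to 0.450). Egr1, a zinc finger factor, stood at 1249 and 476 CPM (ratio 0.381, 0.368 to 0.394). Both were lower in Tim3-KD, while Fos, the partner of Jun in AP-1, differed less, with 2547 and 2089 CPM (ratio 0.820).

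Fosb gave a ratio of 0.518, Atf3 of 0.541, Klf2 of 0.528, Klf4 of 0.566, and the orphan nuclear receptor Nr4a1 of 0.481. Egr2 was the member with the lowest ratio, 0.209 (0.171 to 0.252), with 60.8 CPM with Ctrl and 12.7 with Tim3-KD. The heat shock genes Hspa1a and Hspa1b, near-identical copies whose reads can be split, had ratios of 0.687 and 0.688, and Rgs1, a regulator of G protein signaling, was the only member above 1, with 1.11. Summed per cell, the group gave a median of 145 UMIs per 10000 in Ctrl KCs and 73.0 in Tim3-KD KCs, and 81.2% of Tim3-KD KCs lay below the Ctrl median. The cells overlapped widely, since the range from 5% to 95% of cells was 4.11 to 295 in Ctrl and 0 to 221 in Tim3-KD.

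The same genes did not differ alike in other cell types of these libraries. In all other cells together, their median log2 ratio was -0.51, where that of all features tested in KCs was -0.33. In B cells 11 of 17 were lower and none was higher, with a median log2 ratio of -0.68, where 21.2% of all features tested in B cells were lower and 9.74% higher, with a median of -0.26. In T and NK cells 2 of 15 were lower and 3 higher, with a median of -0.01, against 8.86% and 6.02% of all features. In neutrophils 1 of 16 was lower and 2 were higher, with a median of -0.02, against 14% and 8.66%. Jun had a ratio of 0.402 in B cells, 0.703 in T and NK cells and 0.680 in neutrophils. Egr1 had a ratio of 0.990 in B cells and 1.22 in neutrophils and a higher one in T and NK cells, so its lower level was not shared by these cells. Whether these differences between cell types exceed those between mice was not tested.

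Chemokines and cytokines, the signals with which KCs recruit and instruct other leukocytes, were split. Of 24 tested, 13 were lower and 3 were higher in Tim3-KD, where 11.8% and 4.39% of all features were. The group's median log2 ratio was -0.64. Tnf (chr17:35199381-35202007, minus strand), the inflammatory cytokine, had the lowest ratio, 0.209 (0.177 to 0.245), with 84.7 CPM with Ctrl and 17.7 with Tim3-KD, and a UMI in 39.7% and 13.3% of KCs. Ccl4, a chemokine for T and NK cells, stood at 719.8 and 299 CPM (ratio 0.415), and its neighbor Ccl3 at 385 and 209 (ratio 0.541). Cxcl1, which attracts neutrophils, stood at 253 and 109.5 CPM (ratio 0.434, 0.403 to 0.466). These inflammatory signals were lower in Tim3-KD by a factor between that of Ccl3 and that of Tnf.

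The monocyte chemokine Ccl2 had a ratio of 0.606, the interferon-induced T cell chemokines Cxcl9 and Cxcl10 of 0.435 and 0.360, and Ccl5 of 0.397. Tgfb1, of the TGF-β family, gave 0.508, and the anti-inflammatory cytokine Il10 gave 0.658, with 107 CPM with Ctrl and 70.7 with Tim3-KD. The 3 genes past 1.5-fold in the other direction were Cxcl13, Ccl6 and Il18. Cxcl13 (chr5:95956951-95961068, plus strand), the B cell chemokine, stood at 238 CPM with Ctrl and 474 with Tim3-KD (ratio 1.99, 1.89 to 2.10), and Ccl6, a chemokine of macrophages, at 659.9 and 1225 (ratio 1.86, 1.80 to 1.92). Ccl24, the eotaxin that KCs made at 1379 and 1362 CPM, and Il15 had ratios near 1 (0.988 and 0.990). The group's summed level was alike in both libraries, 5217 and 4910.1 CPM, with Ccl6 and Ccl24 carrying much of it.

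**Figure D3:**
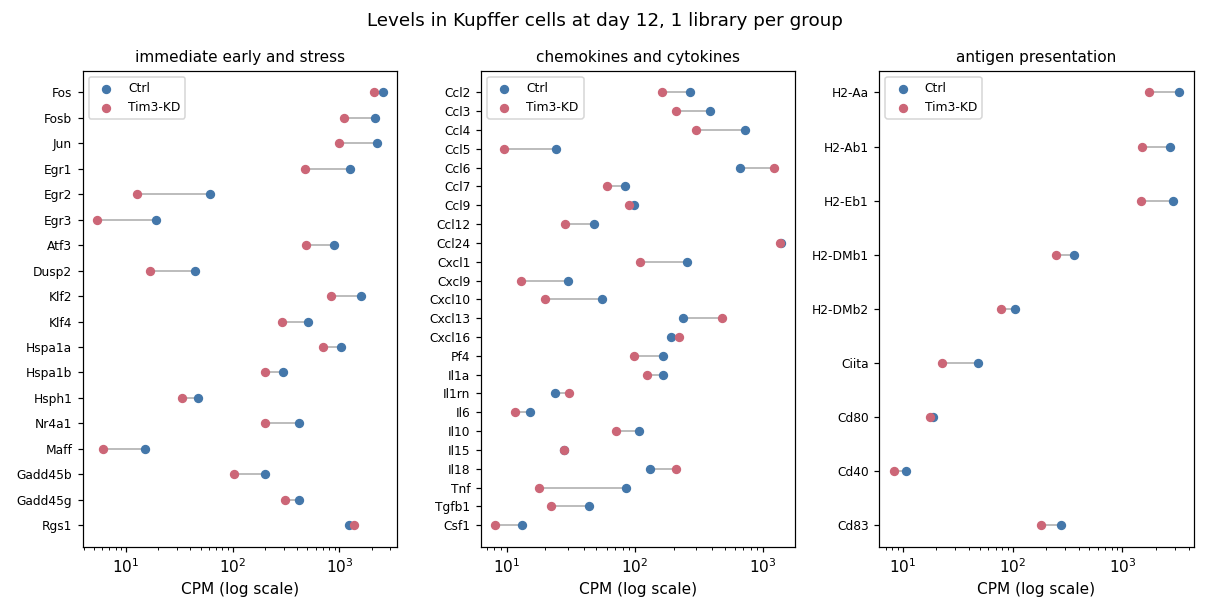
Level of each gene with at least 100 UMIs (CPM, log x axis) in Ctrl and Tim3-KD KCs at day 12, 1 library per group and no error bar, for 3 gene groups (rows are genes). Tim3-KD lies left of Ctrl for 17 of 18 immediate early and stress genes, 19 of 24 chemokines and cytokines and 9 of 9 antigen presentation genes, with Cxcl13, Ccl6 and Il18 far to the right in the middle panel.

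Among 20 genes of the inflammatory response, 9 were lower and 2 higher in Tim3-KD, where 11.8% and 4.39% of all features were. The group's median log2 ratio was -0.50. The lower ones were Nlrp3, the inflammasome sensor (ratio 0.470), Ier3 (0.524), the IκB-like regulator Nfkbiz (0.573), the NF-κB inhibitor Tnfaip3 (0.623), the lectin receptor Clec4e (0.570), the decoy receptor Il1r2 (0.523), the metallothionein Mt2 (0.529), Cebpd (0.653) and Marcksl1 (0.664). The LPS receptors Tlr4 and Cd14 differed little, with ratios of 1.06 and 0.907. Plac8 was higher, with 226 CPM with Ctrl and 455 with Tim3-KD (ratio 2.01), and it had a like ratio in the other cells (2.03). Saa3, the acute phase protein, was also past 1.5-fold (4.17), but only 6.26% and 7.57% of KCs had a UMI of it.

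Promoters of the genes that stood lower were read from RefSeq (GRCm38.p6) and searched for short motifs, as a description. The window ran from 250 bases before to 50 bases after the gene's start, and it was found for all 34 lower genes of the immediate early, cytokine and inflammatory groups. The κB letters, GGG then any 2 bases then TTTCC on either strand, stood in 3 of 34 (8.82%), against 535 of 32851 promoters (1.63%) and 45 of 1837 promoters of genes tested (2.45%). AP-1 letters, TGACTCA on either strand, stood in 4 of 34 (11.8%, Cxcl9, Cxcl10, Mt2 and Tnfaip3) against 5.20% of all promoters and 4.30% of those of genes tested. The CRE letters TGACGTCA stood in 1 of 34 (2.94%, Maff) against 1.79% and 2.50%. A match is a description of the sequence and not a binding site. The 34 genes were chosen by their ratios in these data, and whether the letters bear on these ratios was not tested. The 3 promoters with κB letters are shown for the 250 bases before the start, 5′ to 3′ on the strand of the gene, with the κB letters in capitals. They lie at chr5:90890995-90891244, plus strand, for Cxcl1, chr10:19015411-19015660, minus strand, for Tnfaip3 and chr3:107760470-107760719, minus strand, for Csf1. The start is that of RefSeq. In the annotation used for the other gene coordinates, Tnfaip3 starts at base 19015657, so nearly all of its stretch lies within the gene there.
Cxcl1: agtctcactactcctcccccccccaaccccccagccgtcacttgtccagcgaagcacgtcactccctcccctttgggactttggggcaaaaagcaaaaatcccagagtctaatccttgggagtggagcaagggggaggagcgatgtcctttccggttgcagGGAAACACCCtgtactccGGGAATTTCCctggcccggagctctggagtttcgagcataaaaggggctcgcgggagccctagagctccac
Tnfaip3: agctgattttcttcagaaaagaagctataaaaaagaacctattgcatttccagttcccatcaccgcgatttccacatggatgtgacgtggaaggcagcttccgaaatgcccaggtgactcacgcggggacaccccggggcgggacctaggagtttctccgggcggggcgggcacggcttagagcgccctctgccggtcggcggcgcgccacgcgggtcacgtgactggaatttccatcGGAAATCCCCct
Csf1: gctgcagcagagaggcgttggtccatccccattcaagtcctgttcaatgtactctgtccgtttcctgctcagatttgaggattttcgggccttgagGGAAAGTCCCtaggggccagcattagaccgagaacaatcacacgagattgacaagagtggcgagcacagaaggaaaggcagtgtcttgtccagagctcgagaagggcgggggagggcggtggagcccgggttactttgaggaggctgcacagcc

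Counted from the RefSeq start, the first κB match began at base -89 in Cxcl1, which had a second one at -71, at -12 in Tnfaip3 and at -154 in Csf1. Cxcl1 stood at 253 CPM with Ctrl and 109.5 with Tim3-KD KCs and Tnfaip3 at 168 and 104. Csf1, the macrophage growth factor, was low in both, with 106 UMIs in all KCs of Ctrl and 88 in those of Tim3-KD. Its ratio turned above 1 when KCs with at least 3 UMIs of neutrophil, B cell or T, NK and ILC1 markers were left out.

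MHC class II genes stood lower in Tim3-KD as a group. All 9 antigen presentation genes tested had a ratio below 1 and 5 were past 1.5-fold, where 11.8% of all features in KCs were lower past 1.5-fold. The group's median log2 ratio was -0.62. The α chain gene H2-Aa (chr17:34282744-34287823, minus strand) stood at 3287 CPM with Ctrl and 1737 with Tim3-KD (ratio 0.528, 0.519 to 0.538). H2-Ab1 and H2-Eb1 had ratios of 0.561 and 0.514, and Ciita, the transactivator of these genes, stood at 48.4 CPM with Ctrl and 22.9 with Tim3-KD (ratio 0.473). The activation marker Cd83 had a ratio of 0.649, and the costimulatory genes Cd80 and Cd40 had 0.939 and 0.780. The peptide loading chains H2-DMb1 and H2-DMb2 did not pass 1.5-fold, with 0.682 and 0.744.

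A UMI of H2-Aa was found in nearly all KCs, 99.8% of Ctrl and 98.7% of Tim3-KD KCs. The group's sum had a median of 91.7 UMIs per 10000 in Ctrl KCs and 44.7 in Tim3-KD KCs, and 84.5% of Tim3-KD KCs lay below the Ctrl median. Class II was also lower in other cells of the Tim3-KD library, and the median log2 ratio of the group in all other cells together, -0.96, was below that in KCs. In B cells 4 of 8 genes were past 1.5-fold lower, where 21.2% of all features were, and H2-Aa had a ratio of 0.698. In neutrophils 3 of 4 were lower, with a median of -0.81, where 14% of all features were lower. In T and NK cells 3 of 6 were higher and none was lower, with a median of 0.60, where 6.02% of all features were higher. The part of these shared shifts in the KC difference was not tested.

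**Figure D4:**
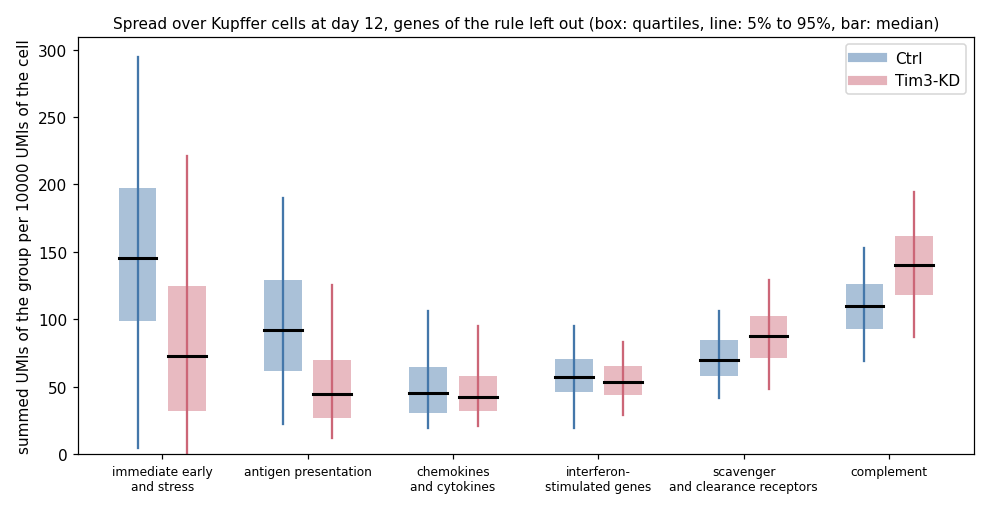
Summed UMIs of 6 gene groups per 10000 UMIs of the cell (y axis) in Ctrl and Tim3-KD KCs at day 12. Boxes span the quartiles of cells, lines run from 5% to 95% of cells and black bars are medians. The median of the immediate early and stress group is 145 in Ctrl and 73.0 in Tim3-KD and that of antigen presentation is 91.7 and 44.7, while the scavenger and complement groups, drawn without the genes of the rule, lie higher in Tim3-KD, with medians of 70.1 and 87.9 and of 109.8 and 139.9.

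Interferon-stimulated genes differed less. Of 41 tested, 6 were lower and 1 was higher, with a median log2 ratio of -0.16. These counts lay near the shares over all features in KCs, 11.8% lower and 4.39% higher. Besides Cxcl9 and Cxcl10, the lower ones were the antiviral genes Mx2 (0.510) and Rsad2 (0.658) and the GTPases Tgtp2 (0.587) and Igtp (0.644). Irf7, the regulator of type I interferon, stood at 687 CPM with Ctrl and 727 with Tim3-KD, and Isg15 at 156 and 111 (ratio 0.713). In neutrophils of the same libraries the group had a median log2 ratio of 0.86, with 18 of 26 genes higher in Tim3-KD and none lower, where 8.66% of all features were higher and 14% lower.

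Genes of KC identity that the rule did not use stood higher in Tim3-KD. Of 23 tested, 5 were past 1.5-fold higher and none was lower, where 4.39% and 11.8% of all features were. A ratio above 1 was found for 19 of the 23, against 49.1% of all features, and their median log2 ratio was 0.34. Marco (chr1:120474538-120505024, minus strand), a scavenger receptor for bacteria and particles, stood at 212 CPM with Ctrl and 461 with Tim3-KD (ratio 2.18, 2.06 to 2.30), and had a UMI in 30.8% and 51.7% of KCs. Cd163, the haptoglobin-hemoglobin receptor, stood at 537 and 875 CPM (ratio 1.63, 1.57 to 1.69). The adhesion molecule Vcam1, the complement component C6 and the potassium channel Kcna2 completed these 5, with 646 and 986 CPM (ratio 1.53), 496 and 746 CPM and 50.3 and 98.3 CPM (ratio 1.95). Timd4 (1.08), Spic (1.04) and Csf1r (1.12), all linked to KC identity, differed little, and Id3, a factor needed for KCs, had 0.790. The summed level of the group was 12642 CPM with Ctrl and 15436 with Tim3-KD. The 4 markers of the rule chose the cells, so their ratios, from 1.22 for Clec4f to 1.37 for Cd5l, are description only and lend this no support.

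Scavenger and clearance receptors, 22 tested without Clec4f, Vsig4 and Cd5l of the rule, had a median log2 ratio of 0.20. Marco and Cd163 were higher, and Mertk was the only one lower, where 4.39% of all features were higher and 11.8% lower. Mertk (chr2:128698956-128802894, plus strand), the kinase receptor with which macrophages engulf dying cells, stood at 705 CPM with Ctrl and 305 with Tim3-KD (ratio 0.433, 0.414 to 0.452). Its relative Axl did not follow, with 446 and 506 CPM (ratio 1.13), nor did the mannose receptor Mrc1 (1.36), the scavenger receptor Msr1 (0.972) or the sialic acid receptor Siglec1 (1.48). The Mertk ratio in the other cells was 0.332, from 25.2 to 8.34 CPM, so it was low in Tim3-KD outside KCs too.

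Complement genes were among the most abundant transcripts of KCs in the matrix. Without C1qa and Vsig4, which the rule used, 11 of them summed to 11069.6 CPM with Ctrl and 14007 with Tim3-KD. Of 10 tested, 1 was higher, C6, a component of the membrane attack complex (496 and 746 CPM, interval of the ratio 1.45 to 1.56). Among all features 4.39% were higher. C1qb and C1qc, the chains that pair with C1qa, had ratios of 1.25 and 1.23, and properdin (Cfp) had 1.37. C3, the central component, stood at 53.2 and 47.3 CPM (ratio 0.889), and the receptors C3ar1 and C5ar1 had 0.932 and 0.915.

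Iron and heme genes, 9 tested, showed 1 higher gene, Cd163, and 1 lower, the heme carrier Hpx, which is a hepatocyte product at 23.0 and 12.4 CPM. The iron exporter Slc40a1 had a ratio of 1.27, with 1644 and 2085 CPM, and heme oxygenase Hmox1 1.07. Among 21 lipid, lysosome and repair genes, 2 were lower and 2 were higher, where 11.8% and 4.39% of all features were. The lower ones were lipoprotein lipase Lpl, with 342 and 205 CPM (ratio 0.598), and Thbs1 (0.473), and the higher ones were Fabp5 and Spp1, both under 15 CPM. The cathepsin genes Ctsb, Ctss and Ctsl, whose products digest ingested protein, had ratios of 1.19, 1.21 and 1.16, and Trem2, a receptor of lipid-associated macrophages, had 0.891.

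Genes of the signals that maintain KCs, 14 tested, had a median log2 ratio of -0.07. The ligand Tgfb1 (0.508), its coreceptor Eng (0.572) and the Notch target Hes1 (0.637) were lower, where 11.8% of all features were. The receptor Tgfbr1, the LXRα gene Nr1h3 and the factor Maf had ratios of 1.30, 1.31 and 1.30, and the BMP target Id1 had 0.994. Endothelial-like genes reported for the KC2 type, such as Mrc1, Cd36, Fcgr2b, Stab2 and Pecam1, all had ratios above 1, none past 1.5-fold, from 1.08 for Stab2 to 1.41 for Pecam1. Proliferation genes, 11 tested, showed none past 1.5-fold, and cells with a UMI of at least 3 of 13 cycling genes were 15 of 847 KCs (1.77%, 0.994 to 2.90) in Ctrl and 13 of 964 (1.35%, 0.720 to 2.30) in Tim3-KD.

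Outside these groups, the features with the lowest ratios were Erdr1 (0.0317), Hmga1 (0.0377) and Ugt1a7c (0.0425), which were low in the other cells of the Tim3-KD library too (0.00982, 0.0846 and 0.143) and whose reads can be split with near-identical copies or shared exons. Next came Tnf and Egr2, then Phlda1 (0.223), Egr3 (0.283) and Hcar2 (0.292), the niacin receptor. Spata7 stood at 131 CPM with Ctrl and 39.1 with Tim3-KD (ratio 0.299), and the serine protease inhibitor Serpina3f had a ratio of 0.311.

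Ddit4 (chr10:59949669-59951834, minus strand), an inhibitor of mTORC1 that stress and glucocorticoids induce, had the highest ratio among genes found in many cells. It stood at 7.37 CPM with Ctrl and 54.6 with Tim3-KD (ratio 7.35, 5.67 to 9.83), with a UMI in 4.49% and 32.5% of KCs, while its ratio in the other cells was 1.16. Ttc39c was past 1.5-fold as well, with 15.1 and 42.1 CPM (ratio 2.78), and so was Cd55, the complement decay factor, with 22.5 and 51.3 (ratio 2.28). Spp1, S100a4, S100a10, Saa3 and Stfa3 also had high ratios but were held by few cells. Spp1 had 6 UMIs with Ctrl and 141 with Tim3-KD, in 0.590% and 0.934% of KCs. When KCs with at least 3 UMIs of neutrophil, B cell or T, NK and ILC1 markers were left out, the ratios of Spp1, S100a4, S100a10 and Stfa3 were below 1.

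Markers of other cell types were present in KCs at levels that varied by list, and some differed between the libraries. The monocyte list summed to 2204 CPM with Ctrl and 2510 with Tim3-KD over 12 genes, against 2733 and 3997 in the other cells. Its member Ifi27l2a had a UMI in 95.2% and 98.2% of KCs. The lesion macrophage list summed to 516 and 301 CPM over 10 genes, against 478 and 520 in the other cells. At least 3 UMIs of this list were held by 46.3% and 33.0% of KCs. Its sum in KCs was mostly Cxcl1, whose levels are given above, and Pf4, both also on the chemokine and cytokine list. Pf4 and Itgb3, the platelet list, summed to 165 and 98.9 CPM in Ctrl and Tim3-KD KCs. Whether the lower sum of the lesion macrophage list reflects lesion macrophages was not tested. Hepatocyte markers other than Trf, which KCs express themselves, were lower in Tim3-KD. Alb stood at 235 CPM with Ctrl and 111 with Tim3-KD (ratio 0.472). Of 9 hepatocyte genes 7 were past 1.5-fold lower, where 11.8% of all features were, although the summed level with Trf was 1260.3 and 1312 CPM. The neutrophil list summed to 192 and 167 CPM over 16 genes, and the T, NK and ILC1 list to 33.9 and 36.2 over 17 genes, mostly Cd4, with 5 members at 0 in Ctrl and 3 in Tim3-KD. The B cell list summed to 191 and 168 CPM over 13 genes, of which Bank1 alone gave 124 and 128, and Ighd and Pax5 were at 0 in Ctrl. The endothelial list summed to 590.2 and 707 CPM over 20 genes, mostly Maf, including Kdr and Ptprb, which the rule limits, with Kdr at 5.03 and 3.05. None of the 9 epithelial and tumor genes looked for was in the matrix. At least 3 UMIs of the B cell list were held by 217 Ctrl and 295 Tim3-KD KCs. Bank1 had a UMI in 62.6% and 66.6% of KCs, so cells that reached this limit were not shown to be mixed cells. In all, 290 Ctrl and 395 Tim3-KD KCs held at least 3 UMIs of neutrophil, B cell or T, NK and ILC1 markers. Without them, 75 features were higher and 165 lower among 1384 tested. Of these, 49 and 136 were among the features higher and lower with all KCs.

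KCs at day 12 were then set beside the cells chosen by the same rule in micrometastasis at day 3, for each tumor line. Of 1329 features held by both matrices with at least 100 UMIs, 27 (2.03%) were at least 1.5-fold higher at day 12 with both lines and 61 (4.59%) were lower with both. The lists of neutrophils, neutrophil precursors, monocytes and lesion macrophages held 17 of the 61 lower ones, and 17 of the 27 higher ones were under 20 CPM in all 4 libraries. Of 22 KC identity genes tested, 17 were within 1.5-fold between the days with both lines, 1 was past it with Ctrl alone and 3 with Tim3-KD alone, and Marco was lower with both.

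Arg1, the arginase of tissue repair macrophages, stood at 14.5 CPM (Ctrl) and 80.5 (Tim3-KD) at day 3 and at 0.491 and 0.740 at day 12, which is at most 8 UMIs in a library at day 12. The neutrophil granule gene Ltf stood at 12.9 and 265 CPM at day 3 and 2.21 and 2.68 at day 12, and the chemokine receptor Cxcr2 at 22.3 and 44.7 against 3.93 and 3.61. In all, 10 of 13 neutrophil markers tested were lower at day 12 with both lines, where 4.59% of all features were. Their summed level in the cells chosen by the rule was 399 and 1258 CPM at day 3 over the 14 genes of both matrices, against 172 and 148 at day 12, so neutrophil transcripts moved with these genes, and their part in the differences was not tested.

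Marco was the KC receptor with the greatest difference between the days. It stood at 784 CPM (Ctrl) and 1989 (Tim3-KD) at day 3 and at 212 and 461 at day 12, a ratio of day 12 over day 3 of 0.270 (0.253 to 0.288) with Ctrl and 0.232 (0.223 to 0.241) with Tim3-KD tumor cells. Tim3-KD was thus above Ctrl at both days, with a ratio of 2.53 (2.41 to 2.67) at day 3, but in adjacent tissue Marco stood at 208 CPM in the 29 Ctrl and 103 in the 101 Tim3-KD cells. Cd163 had the same order at both days, with 752 and 1133 CPM at day 3 (ratio 1.51) before the 537 and 875 of day 12. Ccl6 was below its day 3 level with both lines, with day 12 over day 3 ratios of 0.417 and 0.666.

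The higher genes included low ones of endothelium. The water channel Aqp1 had 2.74 and 0.785 CPM at day 3 and 7.74 and 5.64 at day 12. Without Kdr and Ptprb, whose level the rule limited, 3 of 7 endothelial markers tested were higher at day 12, where 2.03% of all features were. Among genes of KCs, the interferon-stimulated Ifi44 was higher, with 151 and 152 CPM at day 3 and 239 and 279 at day 12. Without the KCs that held at least 3 UMIs of neutrophil, B cell or T, NK and ILC1 markers, 15 features were higher and 28 lower. Of these, 8 and 18 were among those above.

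**Figure D5:**
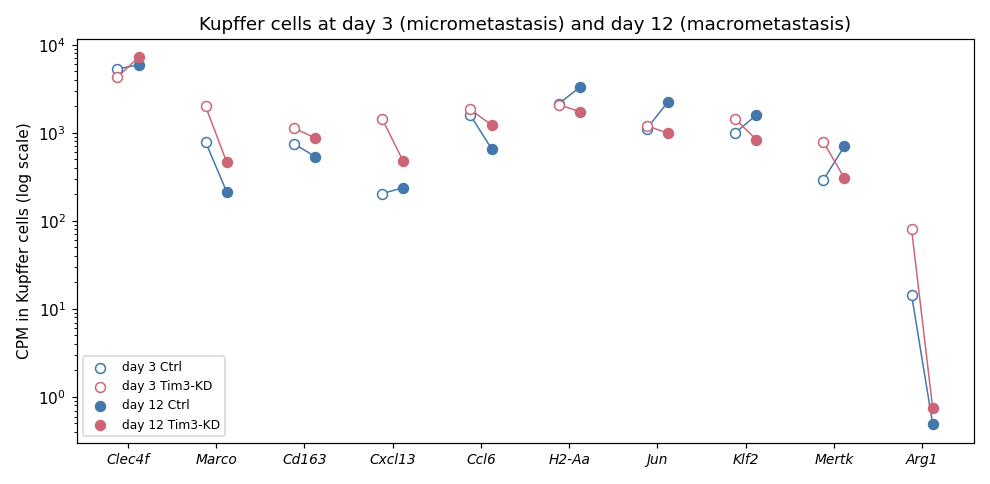
Level in KCs (CPM, log y axis) of 10 genes at day 3 in micrometastasis (open circles) and day 12 in macrometastasis (filled circles), with Ctrl and Tim3-KD tumor cells, 1 library per point and no error bar. Marco and Cd163 lie higher in Tim3-KD at both days, H2-Aa, Jun and Klf2 part between the tumor lines at day 12, and Mertk has the opposite order at day 3 and day 12.

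The genes that parted the tumor lines at day 12 were only in part those that had done so at day 3. Of 727 genes with at least 100 UMIs at both days, 119 were past 1.5-fold at day 12 and 119 at day 3. Of those past it at day 12, 70 were not past it at day 3, while 23 were in the same direction and 26 in the opposite one. At day 3, 107 of 740 genes tested were higher with Tim3-KD and 25 were lower. H2-Aa stood at 2130.5 CPM with Ctrl and 2092 with Tim3-KD at day 3 (ratio 0.982), before the 3287 and 1737 of day 12. Jun stood at 1116 and 1203 at day 3 (ratio 1.08), so that its Ctrl level at day 12, 2245, was the high one of the 4. Tnf stood at 88.8 and 126 at day 3, so that its Tim3-KD level at day 12, 17.7, was the low one. Cxcl13 was already higher with Tim3-KD at day 3, with 204 and 1441 CPM (ratio 7.05). Ddit4 stood at 57.9 and 75.4 CPM at day 3, so that the Ctrl level of 7.37 at day 12 was the one apart.

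Among the KCs of a library, some genes were found in nearly all cells and others in a part. To compare shares at equal depth, each cell was thinned to 1500 UMIs, which all KCs reached, and B cells of the same libraries, which should lack KC genes, gave the background. Clec4f was detected in 99.4% of Ctrl and 99.6% of Tim3-KD KCs after thinning, against 3.86% and 3.15% of B cells, whose median depth was 3792 and 4233.5 UMIs. Timd4 was found in 59.1% and 60.9% of KCs. Marco was found in 14.2% (11.9 to 16.7) of Ctrl and 27.2% (24.4 to 30.1) of Tim3-KD KCs, against 0.168% and 0.210% of B cells, so its difference between the libraries remained at equal depth.

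Cxcl1 went the other way, with 20.0% (17.3 to 22.8) of Ctrl and 7.47% (5.89 to 9.31) of Tim3-KD KCs after thinning. Cxcl13 was found in 17.8% (15.3 to 20.6) and 29.0% (26.2 to 32.0), and Ddit4 in 1.06% and 7.37%. Egr1 was found in 66.7% (63.4 to 69.9) of Ctrl and 30.3% (27.4 to 33.3) of Tim3-KD KCs, and in 19.3% and 20.8% of B cells, which also express it.

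KCs with a UMI of Cxcl1 after thinning, 169 of 847 in Ctrl and 72 of 964 in Tim3-KD, were compared with the KCs without, a split chosen after values had been seen. Of 1166 genes tested, 30 were at least 1.5-fold higher and 8 lower in both libraries in the cells with Cxcl1. The higher ones included other inflammatory genes. Il6 stood at 32.0 CPM with and 10.6 without Cxcl1 in Ctrl, and at 35.3 and 9.42 in Tim3-KD. Tnfaip3 stood at 279.7 and 138 CPM in Ctrl and at 329.9 and 83.1 in Tim3-KD. Tnf, Nlrp3, Ccl4, Ccl3 and Nfkbiz were higher as well, with ratios in Ctrl from 1.60 for Nfkbiz to 1.93 for Tnf, and the heat shock gene Hspa1b was lower, with ratios of 0.569 and 0.346. Inflammatory genes thus varied together among KCs of 1 library, and the cells with Cxcl1 were somewhat deeper (median 9814 against 9067 UMIs in Ctrl).

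Split by Marco in the same way, 120 Ctrl and 262 Tim3-KD KCs had a UMI after thinning. Cells with Marco were at least 1.5-fold higher in both libraries for 6 of 1166 genes, the chemokine Cxcl13, the lectins Cd209f, Cd209g and Clec4e, C3 and Cd55, and lower for 5, among them Cd63 and the integrin Itgb7. Cxcl13 stood at 419.8 CPM with and 206 without Marco in Ctrl and at 760.0 and 364 in Tim3-KD, and Cd209g at 145 and 55.2 in Ctrl and 113 and 60.6 in Tim3-KD. The split by Cxcl13 gave only Marco, Ccl5 and H1f0, all higher. Cells with a UMI of Marco or of Cxcl13 thus held more of the other gene in each library. These shares rest on cells of 1 library each and have no replicate check.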

How the data were processed

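Single-cell RNA-seq values were taken from 3 matrices, 1 per site, each with both tumor lines. Per the submitters' processing notes, reads were trimmed with Trim Galore 0.4.3 and mapped with STAR 2.7.7a to GRCm38. According to the methods, UMIs were counted, low quality cells and doublets called by scrublet were removed, and variable genes were kept, so no doublet caller was run here. The deposited values are a score: per gene, the authors scaled the normalized expression to mean 0 and SD 1, with a cap at 10. Since totals of UMIs had been regressed out, the scores were turned back into UMIs. Of the values 99.997% at day 12 were whole within 0.05, and 0.153% of detected values, at the cap, are lower bounds. In simulated data (2500 cells, 2639 genes) 100% of UMIs came back. The matrix genes held 13.1% of UMIs, and CPM used the totals of all genes.

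KCs were chosen by the marker scores, and UMIs were summed over them (0.5 added to each sum for ratios). Intervals are exact conditional binomial for ratios and Clopper-Pearson for shares. In Poisson counts simulated for Tim3-KD against Ctrl (1778 genes, 200 changed), 99% of 2-fold and 100% of 3-fold changes and 0.380% of unchanged genes were past 1.5-fold. The simulated counts held counting error only and no variation between mice or libraries. The 0.380% is therefore no error rate for the differences observed. Named genes were those of 13 lists of function and of marker lists, the 15 of highest and lowest Tim3-KD over Ctrl ratio, the 15 most enriched in KCs (a UMI in at least 25% of KCs) and the 12 of highest and lowest day 12 over day 3 ratio, without mitochondrial, ribosomal, hemoglobin and variable receptor genes and unnamed features. The cells, lists and rules were chosen with earlier results of these data known. Alternatives covered the marker threshold, scaling, UMI filter, fold, cells with other markers, depth and joined features. Designs with counts were applied to recovered UMIs. Python 3.11.15, numpy 2.4.6, scipy 1.17.1 and matplotlib 3.10.9 were used.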

Additional observations from a re-analysis of the deposited data

Results flagged for a closer look

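For 16 of the named genes the Tim3-KD over Ctrl ratio in KCs was past 1.5-fold in opposite directions at day 12 and day 3, lower with Tim3-KD at day 12 and higher at day 3. With 1 library per group the difference was not tested. The values are differences of the log2 ratios, day 12 minus day 3. Among genes that KCs themselves express, they were -2.64 for the engulfment receptor Mertk, -2.34 for the phosphatase Dusp2, -1.70 for Il10, -1.68 for Ier3, -1.60 for Nfkbiz, -1.58 for Tnfaip3 and -1.43 for Klf4. Mertk stood at 291 CPM with Ctrl and 786 with Tim3-KD at day 3 and at 705 and 305 at day 12. Il10 stood at 28.5 and 61.2 CPM at day 3 and at 107 and 70.7 at day 12.

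The inflammatory receptors Clec4e and Il1r2, which neutrophils also express, differed by -2.44 and -2.42, the histamine enzyme Hdc by -2.47 and the neutrophil stefin Stfa2l1 by -1.39. Neutrophil markers summed to more CPM with Tim3-KD than with Ctrl in the day 3 cells, 1258 against 399, and their part in these values was not tested. The hepatocyte genes Alb, Fgb and Apoa1 differed by -2.81, -2.43 and -2.36. Polr2l differed by -2.75 and Spata7 by -2.59.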

How the results depend on the processing

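The share of KCs in Ctrl was 16.1% when a UMI of 3 of the 4 markers and of neither Kdr nor Ptprb was asked for. For Tim3-KD against Ctrl, the counts were 37 higher and 111 lower with at least 300 UMIs, 315 lower with at least 30 UMIs, and 24 higher and 74 lower at 2-fold. For day 12 against day 3, they were 11 higher and 30 lower with at least 300 UMIs, 116 lower with at least 30, 7 and 36 at 2-fold, 15 and 28 without cells holding other markers, and 123 lower at a marker threshold of 0.5. Fewer features are tested with the higher filter. Shares with a UMI of Marco were 30.8% and 51.7% without thinning. Without joined features, an alternative added after seeing the data, the counts were 71 and 199, and 25 and 60 for the days. All 84 genes past 1.5-fold followed kept their direction without cells under 3000 UMIs, under a trimmed mean of log ratios and with each cell weighing the same. With each cell weighing the same, 24 of the 84 moved outside their counting interval. Without cells holding other markers, 23 moved outside it and 5 turned. The lists used for this include Bank1, of which most KCs had a UMI. Directions turned (log2) without cells holding other markers for Csf1 (0.37), S100a10 (-0.22), S100a4 (-0.36), Spp1 (-0.67) and Stfa3 (-0.42), at a threshold of 1.5 for Saa3 (-0.13) and Spp1 (-0.21), at 0.5 for Stfa3 (-0.042) and Thbs1 (0.13), and at 0.5 for Ass1 between the days (-0.68). As differences of mean deposited scaled values, Prtn3 (-0.0752), S100a10 (-0.00519), S100a4 (-0.00686) and Spp1 (-0.00233) turned. The cause was not tested. No paired analysis was possible because each group has 1 library. With 1 library per group of pooled mice, variation between mice cannot be told apart from the tumor line, and intervals cover counting error only.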
